A study of Mus musculus with 6 samples.

Results

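Followed here were 10 plasma protein genes of the liver: Alb, Ahsg, Ttr, Hp, Hpx and the 5 alpha-1 antitrypsin genes Serpina1a to Serpina1e. They are 10 of 21959 genes in the deposited table and were chosen by name, as secreted proteins of hepatocytes, with their FPKM levels and the differences between these same libraries in view. Their own values are therefore given as a description, without a p-value. RNA was sequenced from mouse cells labelled neutrophil, from tumours grown from Hepa1-6 (a hepatoma cell line of the mouse). The series has 3 GPR35-positive and 3 GPR35-negative libraries, named for GPR35, a receptor that couples to G proteins. The labels give no strain, age, treatment or time for either group, and the sources used here do not give how the cells were separated or how many animals were pooled. Separate animals are not stated for the replicates, so p-values and SDs describe only how far these libraries spread, which may be technical.

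Hepatocytes secrete most of the protein of blood plasma. Albumin carries fatty acids, hormones and drugs and holds water in the vessels, transthyretin (Ttr) carries thyroxine and the retinol-binding protein, and fetuin-A (Ahsg) keeps calcium phosphate in solution. Haptoglobin (Hp) binds free haemoglobin, hemopexin (Hpx) binds free haem, and alpha-1 antitrypsin inhibits neutrophil elastase. In inflammation the liver raises haptoglobin and hemopexin, which are acute-phase proteins, and lowers albumin, transthyretin and fetuin-A. Haptoglobin is also made during granulocyte maturation and stored in granules, and alpha-1 antitrypsin also by monocytes and neutrophils, as described in human cells. The single human alpha-1 antitrypsin gene has several near-identical counterparts in the mouse, which are known to differ from each other in the loop that the target protease cuts.

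The 5 Serpina1 genes lie on the reverse strand of chromosome 12, between 103728156 and 103958975 in GRCm38. Their coding sequences in GENCODE M21 all have 1242 bases, without gaps between them, and 86 positions (6.9%) were not shared by all 5. Pairs were 96.3% to 98.5% identical. Serpina1a and Serpina1c were the closest pair, with 19 differences. The stretch of 60 bases in which the genes differ most is shown because reads from it are the easiest to tell apart. It covers coding bases 1101 to 1160, is written in the sense of the gene, and has the 18 positions that differ in capitals.
Serpina1a, chr12:103853757-103853816: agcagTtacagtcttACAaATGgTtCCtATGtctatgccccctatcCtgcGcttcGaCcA
Serpina1b, chr12:103728324-103728383: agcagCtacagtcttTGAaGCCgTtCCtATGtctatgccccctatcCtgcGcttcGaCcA
Serpina1c, chr12:103895094-103895153: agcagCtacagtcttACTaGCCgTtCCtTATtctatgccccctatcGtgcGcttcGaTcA
Serpina1d, chr12:103763762-103763821: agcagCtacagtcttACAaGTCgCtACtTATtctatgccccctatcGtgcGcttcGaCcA
Serpina1e, chr12:103947100-103947159: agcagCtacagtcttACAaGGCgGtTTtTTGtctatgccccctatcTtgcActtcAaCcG

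The other differing positions are spread over the rest of the coding sequence, and some stretches hold none. Coding bases 58 to 117 were the same in all 5 genes, at chr12:103857936-103857995 in Serpina1a.
shared coding stretch: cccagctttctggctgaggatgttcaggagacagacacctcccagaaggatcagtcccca
Of all words of 100 bases in its transcripts, 57.2% occurred in no other gene for Serpina1a, 85.2% for Serpina1b, 41.5% for Serpina1c, 70.7% for Serpina1d and 85.6% for Serpina1e. For Alb, Ahsg, Ttr, Hp and Hpx every such word was unique to the gene. The sources used here give neither the read length nor what the authors did with reads that fit several genes. Levels of single Serpina1 genes are uncertain for this reason, and their sum is given beside them. In Serpina1c, 429 of 1361 exon bases also lie in an antisense gene, B430119L08Rik, and in Ahsg 62 of 2197 lie in the antisense gene Gm30505. The sources used here do not say whether counting used strand.

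RefSeq promoters on GRCm38.p6 were used for 8 of the 10 genes (Alb, Ahsg, Hpx and the 5 Serpina1 genes), and the 250 bases before each RefSeq start were searched on both strands. The NF-Y letters CCAAT were found in all of these promoters but that of Ahsg, and in 33.8% of 32851 mouse promoters of the same length. In the 5 Serpina1 promoters 2 of the matches lie in 46 bases that are identical in all 5, so these are not separate matches. TATAAA, held by 12.4% of all promoters, and the STAT letters TTCNNNGAA, held by 7.0%, were in none of the 8. These are matches of letters only. RefSeq and GENCODE starts differ: the bases searched for Serpina1a end at 103863620, before its GENCODE start at 103863562. Letters nearer that start were not searched. The 46 shared bases lie at -51 to -6 in Serpina1a and at -108 to -63 in Serpina1e. The Serpina1 promoters share sequence, so letters absent from all 5 are not separate absences.

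Libraries held 16329518 to 18314104 reads assigned to genes in the GPR35-positive group and 15742744 to 17244562 in the GPR35-negative group, a depth derived from the size of 1 read in FPKM. FPKM values are scaled by gene length and by sequencing depth, so levels of different genes can be compared, but only roughly. The lengths that fit these values are those of all annotated exons, 2415 bases for Serpina1b and 1394 for Serpina1d. The transcripts present may be shorter. Gpr35 was at 20.2 ± 1.89 FPKM in GPR35-positive and 1.57 ± 0.398 FPKM in GPR35-negative libraries (SD, n = 3 each). Markers listed for neutrophils and several other cell types differed between the groups, though not on every list and not always in 1 direction. All 18 mature neutrophil markers rose, summing to 10169 to 11123 FPKM in GPR35-positive and 921 to 1182 FPKM in GPR35-negative libraries. All 9 macrophage markers tested rose, with list sums of 1509 to 1549 and 70.8 to 96.8 FPKM, and Vsig4, Clec4f and Timd4 stayed at or near 0. All 5 hepatoma markers tested (Afp, Gpc3, Krt8, Krt18 and Epcam) fell, with list sums of 8341 to 8699 FPKM in GPR35-positive and 12354 to 13535 FPKM in GPR35-negative libraries. Dlk1 and Igf2, on the same list, were at or near 0. Of 20 markers of mature hepatocytes only 7 passed the level filter, of which 2 (Arg1 and Ass1) rose and 4 fell. Arg1 was at 117.9 FPKM in GPR35-positive and 3.844 FPKM in GPR35-negative libraries, and Ass1 at 9.285 and 7.393 FPKM. Which cells held the Arg1 transcripts was not tested. Mature hepatocyte markers at or near 0 included Cyp2e1, Cyp7a1, Otc and Tdo2. Among granule genes, 5 of 7 tested rose and Prtn3 fell, with Mpo at or near 0. The 3 T and NK cell markers tested did not pass, and all 4 endothelial and stellate markers tested rose. In bulk RNA, fewer cells of a type and less RNA per cell cannot be told apart.

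Transcripts of liver proteins, like the hepatoma markers, were present in every library although all 6 are labelled neutrophil, and they did not move as a block. Carrier and haem-binding genes were lower in GPR35-positive libraries: Alb, Ahsg and Hpx were at 0.57 to 0.64 times their GPR35-negative level and Ttr at 0.76. Hp and the 2 most abundant alpha-1 antitrypsin genes were at nearly the same FPKM in both groups, and Serpina1a was higher in GPR35-positive libraries. Of the 8 genes above the level filter, which asked for 1 FPKM or more in 3 or more libraries, 4 were lower without overlap of the groups, 1 was higher without overlap and 3 overlapped. Among all 10060 genes tested, 48.2% were lower and 24.3% higher without overlap, so 4 of 8 lower is near the share of all genes. The median log2 difference was -0.16 for these 8 genes and -0.19 for all genes tested. Serpina1c and Serpina1e were below the filter in both groups.

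**Figure D1:**
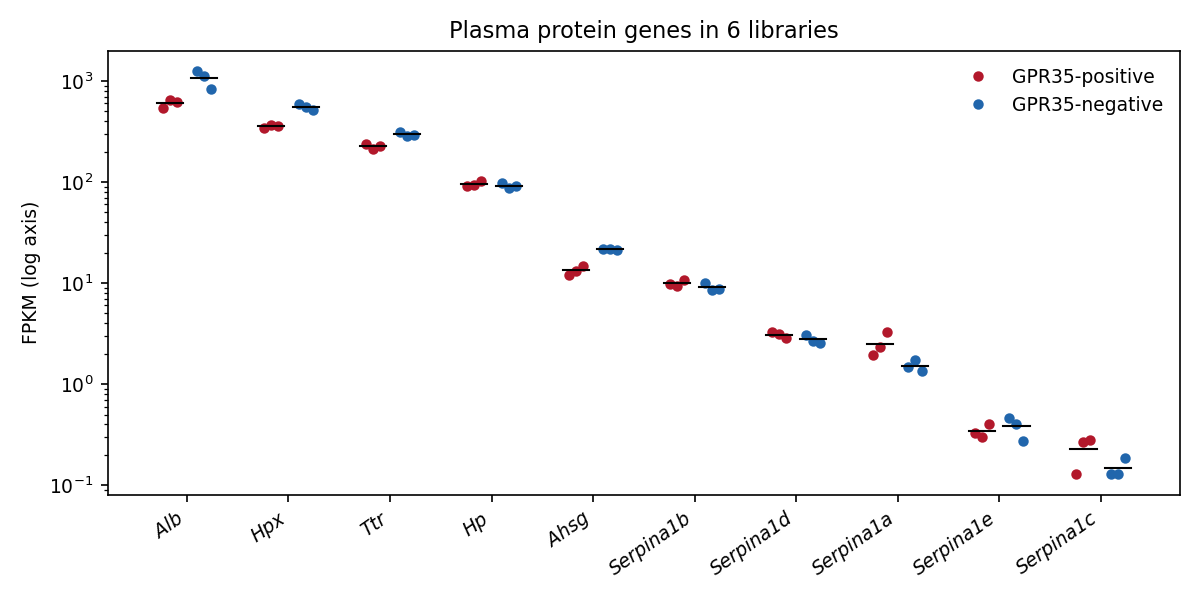
FPKM of the 10 plasma protein genes in each of the 3 GPR35-positive (red) and 3 GPR35-negative (blue) libraries on a log axis, with a black bar at each group mean. The 4 genes with fully lower GPR35-positive points are Alb, Hpx, Ttr and Ahsg, and levels span from about 1068 FPKM for Alb in GPR35-negative libraries to 0.148 FPKM for Serpina1c.

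Alb, on chromosome 5 from 90460897 to 90476602, was the most abundant of the 10. It was at 544, 645 and 624 FPKM in the GPR35-positive libraries, against 1258, 1115 and 829 FPKM in the GPR35-negative libraries. All 3 GPR35-positive libraries were below the lowest GPR35-negative one, replicate 3. The means were 605 ± 53.2 and 1068 ± 218 FPKM (SD, n = 3 each), and the difference on the log2(FPKM + 1) scale was -0.80 (SE 0.14). Alb took 0.128% to 0.151% of the reads of a GPR35-positive library and 0.195% to 0.295% of those of a GPR35-negative library. Its spread within the GPR35-negative group was wide: the SD was 20.5% of the mean, while the median over 4218 genes of at least 10 FPKM was 6.99%. In the GPR35-positive group these values were 8.80% and 5.85%.

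Hpx, on chromosome 7 from 105591613 to 105600137, was the next most abundant. It was at 341, 370 and 358 FPKM in the GPR35-positive libraries, against 598, 558 and 513 FPKM in the GPR35-negative libraries. The groups did not overlap, and GPR35-negative replicate 3 was again the lowest of its group. The log2 difference was -0.64 (SE 0.08).

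Ttr, on chromosome 18 from 20665280 to 20674321, followed Hpx in both groups. Its values were 240, 211 and 229.5 FPKM in GPR35-positive libraries and 314, 286 and 291 FPKM in GPR35-negative libraries. The groups did not overlap, but the log2 difference, -0.39 (SE 0.07), was the smallest of the 4 lower genes. It was -0.25 with median-of-ratios scaling, in which each library is divided by its median ratio to the mean library.

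Ahsg, on chromosome 16 from 22891277 to 22899449, was far less abundant than these 3. It was at 12.1, 13.1 and 14.7 FPKM in the GPR35-positive libraries, against 21.7, 21.8 and 21.2 FPKM in the GPR35-negative libraries. The SD was 9.83% of the mean in GPR35-positive and 1.52% in GPR35-negative libraries, which was the smallest GPR35-negative spread of the 10 genes. The log2 difference was -0.66 (SE 0.08). Fetub, which encodes the related fetuin-B beside Ahsg on chromosome 16 and is no member, fell to 7.02 FPKM in GPR35-positive libraries, against 11.1 FPKM in GPR35-negative libraries (limma adjusted p = 0.000135).

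**Figure D2:**
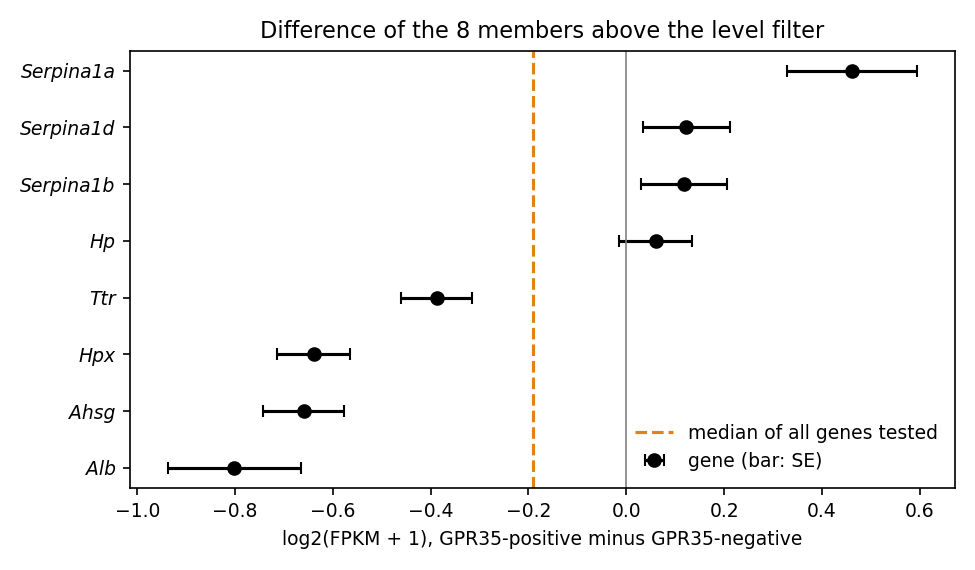
Difference between GPR35-positive and GPR35-negative libraries on the log2(FPKM + 1) scale for the 8 genes above the level filter, with bars of 1 SE from the limma fit; the dashed line is the median of all genes tested, -0.19. Alb, Ahsg, Hpx and Ttr lie left of that line, and Hp and the 3 Serpina1 genes lie right of 0.

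Hp, on chromosome 8 from 109575128 to 109579172, shared none of that shift. It was at 92.2, 93.4 and 104 FPKM in the GPR35-positive libraries, against 98.4, 87.9 and 90.9 FPKM in the GPR35-negative libraries. The groups overlapped, the means were 96.4 ± 6.24 and 92.4 ± 5.37 FPKM (SD, n = 3 each), and the log2 difference was 0.06 (SE 0.07). On recovered reads scaled by the trimmed mean of M values (TMM) it was 0.19, and with median-of-ratios scaling 0.20. For every 1000 FPKM of Hpx there were 252 to 289 FPKM of Hp in GPR35-positive libraries, against 158 to 177 FPKM in GPR35-negative libraries. The summed neutrophil granule genes were 69.3 FPKM in GPR35-positive and 28.1 FPKM in GPR35-negative libraries. On that list Prtn3 fell, and Elane, Mpo and Ctsg were below the level filter. The part of granulocyte transcripts in the Hp level was not tested.

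The alpha-1 antitrypsin genes were far below Alb in FPKM, a level per unit length. Serpina1b (103728156 to 103830373 on chromosome 12) was at 9.69, 9.46 and 10.6 FPKM in the GPR35-positive libraries, against 9.99, 8.55 and 8.68 FPKM in the GPR35-negative libraries. Serpina1d (103763594 to 103773592, within the annotated span of Serpina1b) was at 3.27, 3.16 and 2.86 FPKM in GPR35-positive and 3.08, 2.67 and 2.55 FPKM in GPR35-negative libraries. For both genes the groups overlapped, with log2 differences of 0.12 (SE 0.09 each). With median-of-ratios scaling these were 0.25 for Serpina1b and 0.23 for Serpina1d, and by limma-voom 0.26 and 0.29.

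Serpina1a (103853589 to 103863562) was at 1.94, 2.31 and 3.31 FPKM in GPR35-positive and 1.49, 1.74 and 1.35 FPKM in GPR35-negative libraries. These rest on 61, 69 and 111 reads in GPR35-positive libraries and 47, 54 and 39 reads in GPR35-negative libraries. The groups did not overlap in FPKM. The exact 95% Poisson intervals of the reads, which hold counting error alone, were 46.7 to 78.4, 53.7 to 87.3 and 91.3 to 134 in GPR35-positive libraries, against 34.5 to 62.5, 40.6 to 70.5 and 27.7 to 53.3 in GPR35-negative libraries. The interval of GPR35-positive replicate 3 lay above all those of the GPR35-negative libraries, while those of replicates 1 and 2 overlapped some of them. The log2 difference was 0.46 (SE 0.13). It was 0.31 without GPR35-positive replicate 3, which was the highest, and 0.82 by limma-voom on recovered reads.

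Serpina1c (103894926 to 103904887) had only 3, 6 and 7 reads in the GPR35-positive libraries and 3, 3 and 4 in the GPR35-negative libraries, or 0.128 to 0.281 FPKM over all 6. Serpina1e (103946931 to 103958975) had 9, 8 and 12 reads in GPR35-positive and 13, 11 and 7 reads in GPR35-negative libraries. The groups overlapped for both genes, and neither was tested.

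Summed over the 5 genes, alpha-1 antitrypsin transcripts were at 15.4, 15.5 and 17.5 FPKM in GPR35-positive and 13 to 15.1 FPKM in GPR35-negative libraries. The groups did not overlap, although the lowest GPR35-positive and the highest GPR35-negative library were close. The means were 16.1 ± 1.19 and 13.9 ± 1.11 FPKM (SD, n = 3 each), a ratio of 1.16. Serpina1b made up 60.8% to 63.1% of the sum in GPR35-positive libraries and 63.4% to 66.5% in GPR35-negative libraries. These did not overlap, but 63.1% and 63.4% are close for sums of 436 to 673 reads a library. Serpina1a made up 12.7% to 18.9% and 9.82% to 12.9%, so that its share overlapped between the groups, and Serpina1d 16.4% to 21.3% and 19.6% to 20.3%.

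**Figure D3:**
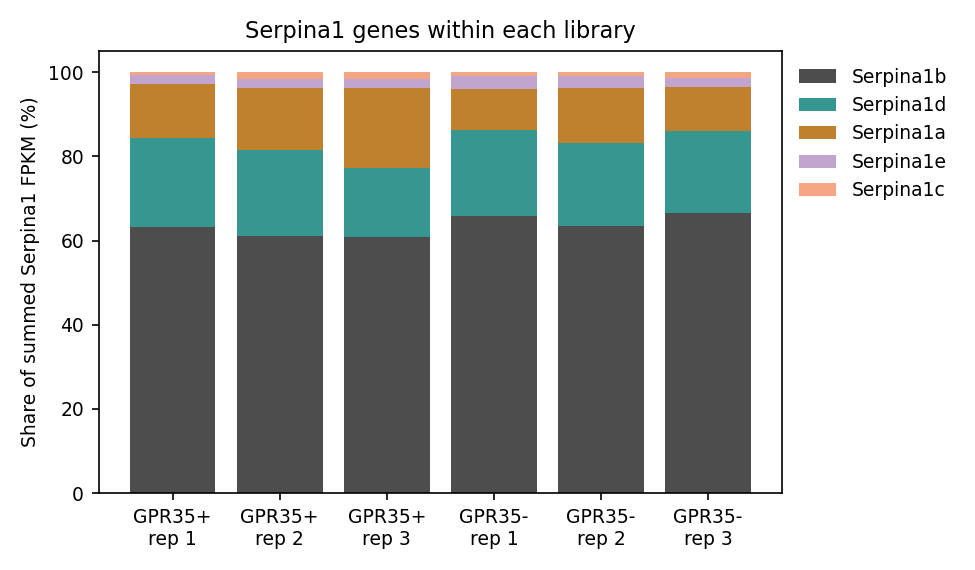
Share of each Serpina1 gene in the summed FPKM of the 5 genes (percent), 1 bar for each library, GPR35-positive libraries left of GPR35-negative ones. Serpina1b holds 60.8% to 66.5% of every bar, and the Serpina1a segment is tallest in GPR35-positive replicate 3 at 18.9%.

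By level the order was the same in both groups: Alb, Hpx, Ttr, Hp, Ahsg, Serpina1b, Serpina1d, Serpina1a, Serpina1e and Serpina1c. Neighbours in this order did not overlap in either group, with the exception of Serpina1d and Serpina1a in GPR35-positive libraries. Together the 10 genes took 0.228% to 0.253% of the reads of a GPR35-positive library and 0.328% to 0.446% of those of a GPR35-negative library.

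Set against the hepatoma markers of the same library, the genes divided in another way. Most of that sum came from 2 keratin genes, Krt18 and Krt8. Krt18 was at 4224 FPKM in GPR35-positive and 6522 FPKM in GPR35-negative libraries, and Krt8 at 3604 FPKM in GPR35-positive and 5379 FPKM in GPR35-negative libraries. Their ratios were 0.648 and 0.67, while that of Gpc3 was 0.548. For every 1000 FPKM of the 7 summed markers there were 42.1 FPKM of Hpx in GPR35-positive and 43.1 FPKM in GPR35-negative libraries, a ratio of 0.976, and the groups overlapped. Ahsg and Alb also overlapped, with ratios of 0.94 and 0.861. Ttr was at 26.7 FPKM in GPR35-positive and 22.9 FPKM in GPR35-negative libraries on this scale, without overlap. Hp was at 10.6, 11.2 and 12.3 FPKM in GPR35-positive and 7.59, 7.12 and 6.72 FPKM in GPR35-negative libraries, a ratio of 1.59. The ratios of Serpina1b, Serpina1d and Serpina1a were 1.66, 1.7 and 2.51, each without overlap. The markers themselves differed between the groups by a factor of 0.655, so these ratios carry that difference. A gene at equal FPKM in both groups would come out higher in GPR35-positive libraries on this scale. How many of all genes lack overlap on this scale was not counted, and the share of cells behind the marker difference was not tested.

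**Figure D4:**
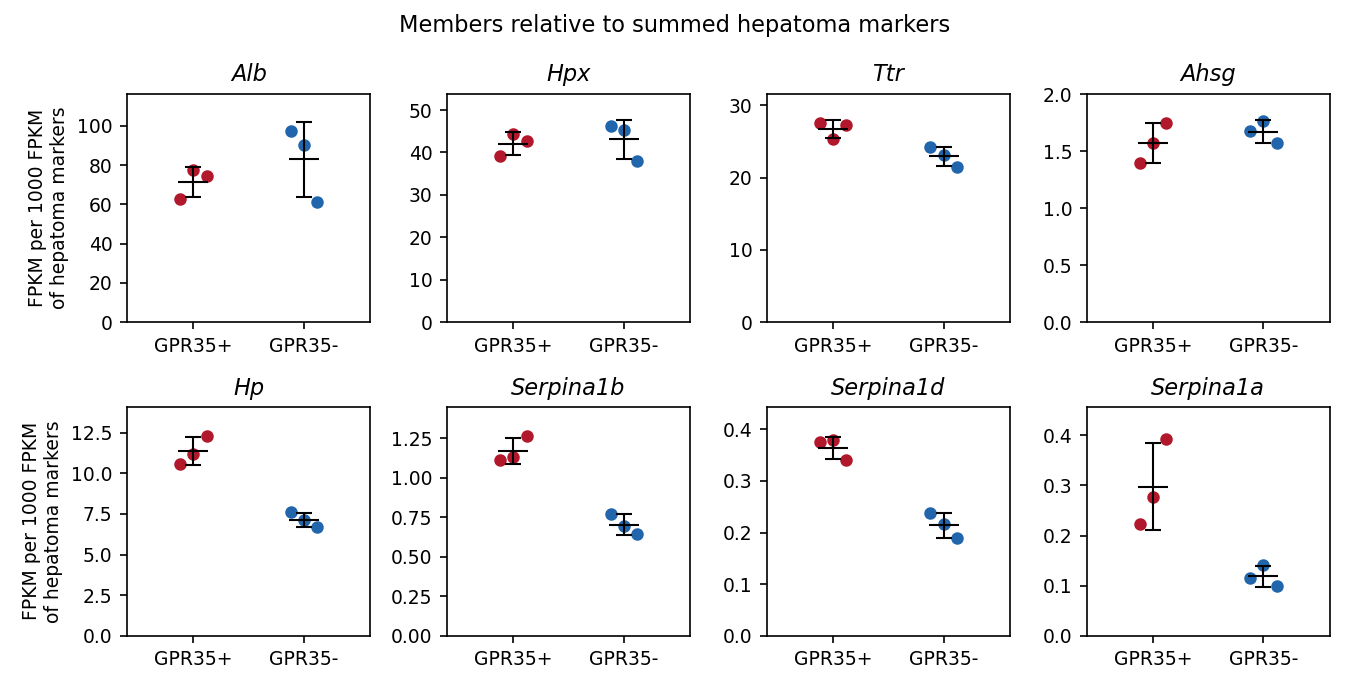
FPKM of 8 plasma protein genes for every 1000 FPKM of 7 summed hepatoma markers, by library, with mean and SD (n = 3 each), GPR35-positive left of GPR35-negative and each axis starting at 0. Alb, Hpx and Ahsg overlap between the groups, while Hp and the Serpina1 genes are higher in every GPR35-positive library.

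Genes whose profile over the 6 libraries was most like that of Alb were found by the root mean square difference of centred log2(FPKM + 1) values, among 4142 protein-coding genes with a named symbol and a mean of at least 10 FPKM. They were Tuba1a (0.05), Ptprf (0.08), Hgfac (0.08), C1ra (0.08) and Abcc3 (0.08). Tuba1a, a tubulin gene, was at 72.3, 93.5 and 84.2 FPKM in GPR35-positive and 166, 147 and 109 FPKM in GPR35-negative libraries. Its low GPR35-negative replicate 3 is part of the profile by which it was picked. Hgfac encodes a plasma protease of liver origin and C1ra a complement protease. For the Serpina1 sum the nearest were Psmb8 (0.03), Plac8 (0.03), Hilpda (0.05), Pttg1ip (0.06) and Zfp207 (0.06). Psmb8, an immunoproteasome subunit gene, was at 29.7 FPKM in GPR35-positive and 25.6 FPKM in GPR35-negative libraries.

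Other plasma protein genes were tested across the whole table with limma, in which 45.5% of 10060 genes were lower and 23.3% higher in GPR35-positive libraries (68.8% either way, adjusted p under 0.05). Of 63 such genes, 41 passed the level filter, and 25 fell, 6 rose and 10 did not pass the test. Their median log2 difference was -0.34, against -0.19 for all genes tested. Without a filter, 24 of 62 fell and 8 rose, with a median of -0.11. Over all 19818 genes in that setting 4382 fell and 3440 rose, with a median of -0.0.

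Carriers of the plasma fell or did not pass. Of 16 tested, 11 fell and 5 did not pass (median -0.35). With median-of-ratios scaling 7 fell, while the number of all genes lower went from 4575 to 3030. Without GPR35-negative replicate 3, 11 fell and 1 rose. The iron carrier transferrin (Trf) was at 7130 ± 194 FPKM in GPR35-positive and 10855 ± 288 FPKM in GPR35-negative libraries (log2 difference -0.61, adjusted p = 6.55e-05). Rbp4, which encodes the retinol-binding protein that travels with transthyretin, was at 3900 ± 89.8 and 6403 ± 661 FPKM (adjusted p = 6.82e-05). Afp, the fetal relative of Alb beside it on chromosome 5, was at 450 ± 9.74 and 686 ± 49.7 FPKM (SD, n = 3 each, adjusted p = 4.75e-05). Ambp, which encodes alpha-1 microglobulin and bikunin, fell by 0.40 on the log2 scale. For every 1000 FPKM of Afp there were 1219 to 1456 FPKM of Alb in GPR35-positive and 1301 to 1708 FPKM in GPR35-negative libraries, and the groups overlapped.

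Protease inhibitors other than alpha-1 antitrypsin fell for the most part, while 2 rose. Of 13 tested, 8 fell and 2 rose (median -0.34). With median-of-ratios scaling, under which 3030 and not 4575 of all genes were lower, 5 fell and 2 rose. Serpinf2, the gene of alpha-2 antiplasmin, was at 232 ± 5.5 FPKM in GPR35-positive and 347 ± 14.1 FPKM in GPR35-negative libraries (SD, n = 3 each, limma adjusted p = 2.81e-05). Itih2, Kng1 and Serpind1, which encode an inter-alpha-trypsin inhibitor chain, kininogen and heparin cofactor II, had log2 differences of -0.48, -0.35 and -0.31. The last 2 were not called under median-of-ratios scaling (adjusted p = 0.0571 and 0.0527). Serpinf1 and Serping1, the genes of pigment epithelium-derived factor and the C1 inhibitor, rose by 0.96 (adjusted p = 2.44e-05) and 0.67 (adjusted p = 0.000203). Serpina6 and Serpina10, near the Serpina1 genes on chromosome 12, had log2 differences of -0.01 (adjusted p = 0.948) and -0.34 (adjusted p = 0.0146).

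Acute-phase genes moved in both directions. Of 12 tested, 4 rose and 6 fell (median -0.17). All genes tested also moved both ways: 23.3% rose and 45.5% fell (median -0.19). The fibrinogen genes Fgb, Fgg and Fga had log2 differences of -0.43, -0.31 and -0.37, and the complement gene C3 one of -0.49; Fgg was not called under median-of-ratios scaling (adjusted p = 0.114). Lrg1, which encodes a leucine-rich glycoprotein of liver and neutrophils, rose to 17.6 ± 2.03 FPKM in GPR35-positive libraries, against 4.38 ± 0.202 FPKM in GPR35-negative libraries (SD, n = 3 each, limma adjusted p = 7.24e-08). Saa3, a serum amyloid A gene made outside the liver as well, rose by 1.26, the hepcidin gene Hamp by 1.61 and the orosomucoid gene Orm1 by 0.97. Socs3, an inhibitor of IL-6 signalling, was at 172 ± 34.3 and 175 ± 14.6 FPKM (SD, n = 3 each, limma adjusted p = 0.798). The serum amyloid genes Saa1 and Saa2 and Crp were at or near 0 in all 6 libraries. Summed mature neutrophil markers were 10.1-fold and macrophage markers 18.2-fold higher in the same GPR35-positive libraries, and their part in these rises was not tested.

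**Figure D5:**
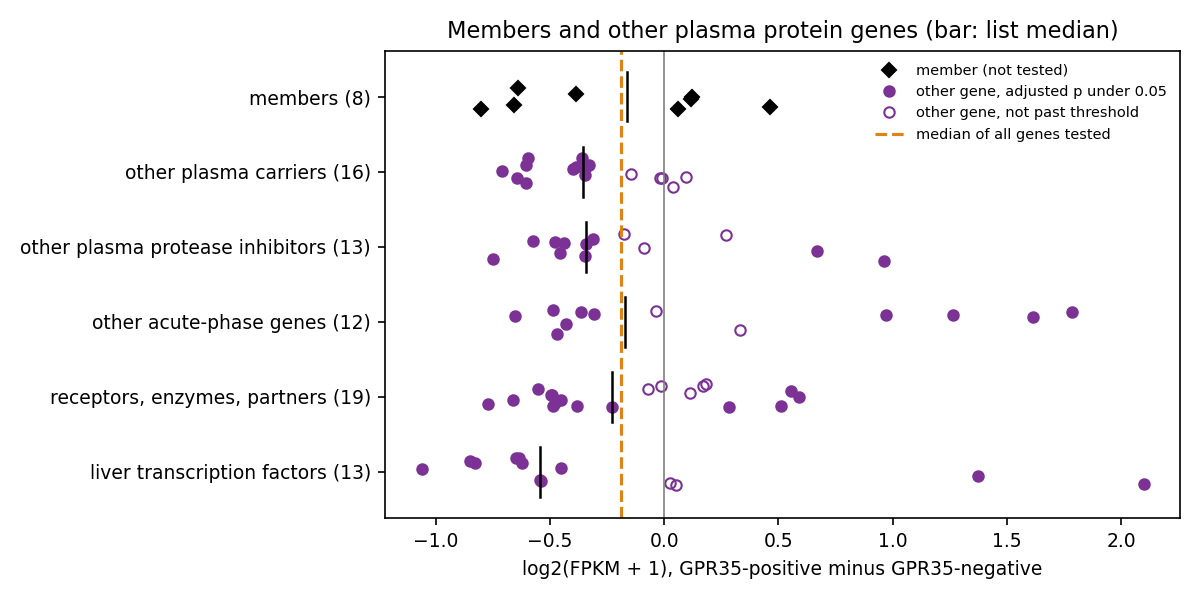
Log2(FPKM + 1) difference between GPR35-positive and GPR35-negative libraries for the 8 members above the filter (diamonds) and for tested genes of 5 lists (circles, filled where the limma adjusted p was under 0.05), with black bars at list medians. The acute-phase list spreads from -0.65 to 1.79, while the 11 carrier genes past the threshold lie left of 0.

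Receptors, enzymes and proteases that act with these proteins were measured in the same libraries. Of 19 tested, 10 fell and 4 rose (median -0.23), while among all genes tested 45.5% fell and 23.3% rose (median -0.19). Hmox1, which encodes the enzyme that breaks down haem delivered by hemopexin or haptoglobin, rose to 315 ± 15.6 FPKM in GPR35-positive libraries, against 209 ± 8.45 FPKM in GPR35-negative libraries (SD, n = 3 each, limma adjusted p = 3.62e-05). Of the 2 biliverdin reductase genes, Blvra rose by 0.55 and Blvrb fell by 0.48. Cd163, the haptoglobin-haemoglobin receptor gene of macrophages, did not reach the filter, with 0.14 to 0.224 FPKM in GPR35-positive libraries and at most 0.0106 FPKM in GPR35-negative libraries. Lrp1, the hemopexin receptor gene, fell to 3.1 FPKM in GPR35-positive libraries, against 4.61 FPKM in GPR35-negative libraries (limma adjusted p = 0.00452). Fcgrt, which encodes the receptor that recycles albumin, was at 52.2 and 53.1 FPKM (limma adjusted p = 0.884). Elane, the gene of the elastase that alpha-1 antitrypsin inhibits, was below the filter in all libraries, at up to 0.555 FPKM, and Prtn3, the related proteinase 3 gene, fell to 2.54 FPKM in GPR35-positive libraries, against 4.59 FPKM in GPR35-negative libraries (limma adjusted p = 0.000103). Stat3, the transcription factor gene of the acute-phase response, rose by 0.51. Hspa5, an endoplasmic reticulum chaperone gene, fell by 0.23 (adjusted p = 0.0113), a call that ended with median-of-ratios scaling (adjusted p = 0.295), by limma-voom (0.156), without GPR35-positive replicate 3 (0.0541) and without GPR35-negative replicate 2 (0.0508). Mcfd2, a cargo receptor gene of the secretory pathway, did not pass (adjusted p = 0.379).

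Of 13 transcription factor genes of hepatocytes tested, 9 fell, 2 rose and 2 (Cebpa and Dbp) did not pass (median -0.55). Hnf4a was at 10.4 ± 1.78 FPKM in GPR35-positive and 23.0 ± 4.46 FPKM in GPR35-negative libraries (SD, n = 3 each, limma adjusted p = 0.000142). Foxa3, Foxa2 and Prox1 fell by 0.83, 0.62 and 0.85 on the log2 scale. Cebpd and Cebpb, C/EBP genes that myeloid cells also express, rose by 2.1 (adjusted p = 4.54e-08) and 1.375 (adjusted p = 0.0036). Cebpb was at 86.7, 86.0 and 94.5 FPKM in GPR35-positive and 21.2, 26.3 and 67.7 FPKM in GPR35-negative libraries, so that GPR35-negative replicate 3 stood apart from the other 2; without it the log2 difference was 1.87 (adjusted p = 2.45e-08). Cebpa was at 11.3 and 10.9 FPKM (limma adjusted p = 0.719).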

How the data were processed

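RNA of 3 GPR35-positive and 3 GPR35-negative libraries, grouped and numbered by their titles, was available as 1 table. The authors deposited FPKM values, per the file headers. Per the labels' protocols, Trizol was used for the RNA and a NEBNext Ultra II kit for the libraries. HTSeq 0.9.1, fastp 0.22.0, DESeq 1.38.3 and HISAT2 2.1.0 stand in the submitters' processing notes with no role, beside a human build, while the IDs are mouse Ensembl genes. The sources used here do not give the authors' annotation.

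Symbols, positions and exon lengths came from GENCODE M21 (GRCm38), which held 21902 of 21959 IDs. With those lengths 97.7% of FPKM values above 0 in each library came out as whole reads within 0.02, and so did all those of the 10 members. No 2 replicates agreed within sampling noise (mean chi-square of 5.36 to 21.7 a gene).

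The fit was limma-trend (limma 3.58.1, R 4.3.3) on log2(FPKM + 1), two-sided, over the 10060 genes that reached 1 FPKM in 3 or more libraries, with Benjamini-Hochberg adjustment at 0.05. Adjusted p-values are from limma, and log2 differences are on that scale, which understates changes of low genes. The fit was also tested on simulated data. The members, lists and tests were chosen with earlier results of these data known. From each list of plasma proteins, their partners and transcription factors the 4 genes with the highest mean level and the 2 with the smallest p are named, and the 5 likest profiles; other list genes, markers included, were named after their values were seen. Figures and sums were made with Python 3.11.15, pandas 2.3.3, matplotlib 3.10.9 and Biopython 1.88. All value columns were used, and promoters searched are from RefSeq; some results are not reported here. Alternatives were another pseudocount, no filter, other scalings, limma-voom on recovered reads, a replicate block and leaving out each library.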

Additional observations from a re-analysis of the deposited data

How the results depend on the processing

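The number of genes lower in GPR35-positive libraries was 4575 and became 3030 with median-of-ratios scaling, while 2342 and 2751 were higher. Higher genes were 33.9% of calls as deposited, 47.6% with that scaling, 45.7% by limma-voom with TMM on recovered reads and 44.0% without a filter. That scaling moved the median log2 difference of all genes from -0.19 to -0.07. Leaving out each library gave 3900 to 4558 lower and 2176 to 2362 higher genes. Other plasma protein genes were 25 lower and 6 higher; leaving out each library gave 23 to 25 and 6 to 8, and median-of-ratios scaling 17 and 7.

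Among the members, Alb, Ahsg, Hpx and Ttr kept a negative and Hp, Serpina1a, Serpina1b and Serpina1d a positive log2 difference under every alternative run. Alb ranged from -0.97 to -0.66, Ahsg from -0.73 to -0.53, Hpx from -0.70 to -0.50 and Ttr from -0.43 to -0.25. Hp ranged from 0.01 to 0.20, Serpina1b from 0.07 to 0.26 and Serpina1d from 0.08 to 0.29. The lowest values of Hp, Serpina1b and Serpina1d had SEs of 0.09, 0.11 and 0.10, larger than the values themselves. The sign of these 3 is therefore not settled.

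The sources used here do not say whether same-numbered libraries were paired. Their deviations from group means correlated at -0.002, 0.4 and -0.064, and those of differently numbered libraries at -0.373 to 0.248. These few values cannot settle the pairing. With the replicate block 4633 genes were lower and 2365 higher, and 25 and 6 of the other plasma protein genes. Depth limits Serpina1c and Serpina1e, which had 3 to 13 reads a library.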
